A study of Mus musculus with 15 samples.

Results

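Chemokines are small secreted proteins that attract leukocytes, and chemokine receptors are the G protein-coupled receptors that read them. The genes described here are those whose symbol on the array was that of a CC, CXC, CX3C or XC chemokine or of one of their receptors, with 2 CXC ligands left out by the rule and 1 further match, a receptor, not counted. They were 50 genes of 28905 gene names and 67 probes of 45281. Of these genes 33 encode ligands (11 CXC, 20 CC, and 2 of the CX3C and XC classes) and 17 encode receptors (10 CC and 7 of the other classes). The ligands Ccl21a and Ccl21c are near-identical copies whose probes may not tell them apart, so their values are uncertain and are not independent. The array design lists Ackr3 as Cxcr7, Pf4 as Cxcl4 and Ccl27a as Ccl27, and these older names are kept.

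Total RNA from anterior prostate was hybridised to Illumina BeadArrays, 1 array for each of 15 mice. The 3 control mice were intact and carried 1 modified allele that all 15 mice shared. The 12 mutant mice had, in addition, floxed alleles of a second gene, and 6 of them were intact while the other 6 had been castrated. The labels record no treatment, and they do not say whether an agent was given to induce recombination. They give neither the age of the mice nor the time since castration, nor do they say in which cells the floxed alleles were recombined. The altered genes are not named here.

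Chemokines are grouped by the spacing of their first cysteines. CXC ligands such as Cxcl1 and Cxcl2 mainly attract neutrophils, many CC ligands attract monocytes and T cells, and Cxcl13, Ccl19 and Ccl21 place B and T cells in lymphoid tissue. Epithelium, macrophages and stroma can all make chemokines, and in bulk tissue a receptor transcript mostly comes from the leukocytes that carry it. In such tissue more cells of a type and more RNA per cell cannot be told apart.

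Values are log2 intensities, as mean ± SD over the arrays of a group unless single arrays are given, and a fold is the ratio on the linear scale. A probe was above background on an array if it exceeded the 95th percentile of 1486 probes of olfactory and vomeronasal receptors, which lay between 7.27 and 7.39. Between 42.2% and 48.2% of probes passed that limit on an array. A gene was tested if its brightest probe passed it on at least 3 arrays, and it was called changed at a limma adjusted p under 0.05 over 16682 genes. Luminal keratins were bright in every group (Krt8 at 13.36 in control, 14.56 in mutant intact and 14.74 in mutant castrated), while the secretory marker Pbsn fell from 11.83 in control to below background on all 12 mutant arrays. Some arrays stood apart from their group. Summed intensities of 7 seminal vesicle transcripts reached 109566 to 138301 on control 2 and 3 and 97165 to 142122 on mutant intact 2 and 3, with 1001 to 5347 on the remaining intact arrays. They were 20396 and 21852 on castrated 3 and 6 and 1027 to 4243 on the other castrated arrays. Mutant intact 1 had a macrophage marker sum of 145056, with 19925 to 35414 in its group otherwise. Castrated 1 and 5 had fibroblast sums of 10224 and 13137 against 36422 to 48764 on the other castrated arrays.

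Of the 50 genes, 37 were tested (28 ligands and 9 receptors). The other 13 were dim throughout. Ccl28 was above background on 1 mutant intact array and Ccr10 on 1 control array. The remaining 11 were above background on none: the ligands Ccl1, Ccl26, Cxcl3 and Cxcl11 and the receptors Ccr1, Ccr1l1, Ccr2, Ccr3, Ccr4, Ccr8 and Ccr9. No statement on a change can be made for these 13 genes. A further Ccr2 probe, listed under another name and not counted here, was above background on 1 array.

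The first comparison set intact mutant against intact control prostate. Of the 37 tested members 18 rose and 0 fell, a share of 48.6% higher, against 18.2% higher and 25.4% lower over all tested genes. At an unadjusted p under 0.05, 19 members were higher, against 21.4% of all genes. The median log2 fold change was 0.80 over the members and -0.04 over all genes. The called members were 6 of 9 CXC ligands (median 2.94), 7 of 17 CC ligands (median 0.49), both CX3C and XC ligands, 3 of 7 CXC, CX3C and XC receptors (median 0.33) and neither of the 2 tested CC receptors. For 15 members the log2 fold change of the called change was over 1, which held for 7.97% of all genes. Of the 18, 7 were above background on no control array, so they entered the test only through the mutant arrays and the counts describe the members that passed the filter. Among all tested members 12 of 37 (32.4%) were above background on no control array, against 11.8% of all tested genes. All arrays of the groups lay apart for 20 higher members, against 17.9% of all genes, and for 1 lower member, Cxcr7, against 23.6%. Cxcr7 was close to background, above it on 1 of 3 control and 1 of 6 mutant intact arrays.

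**Figure D1:**
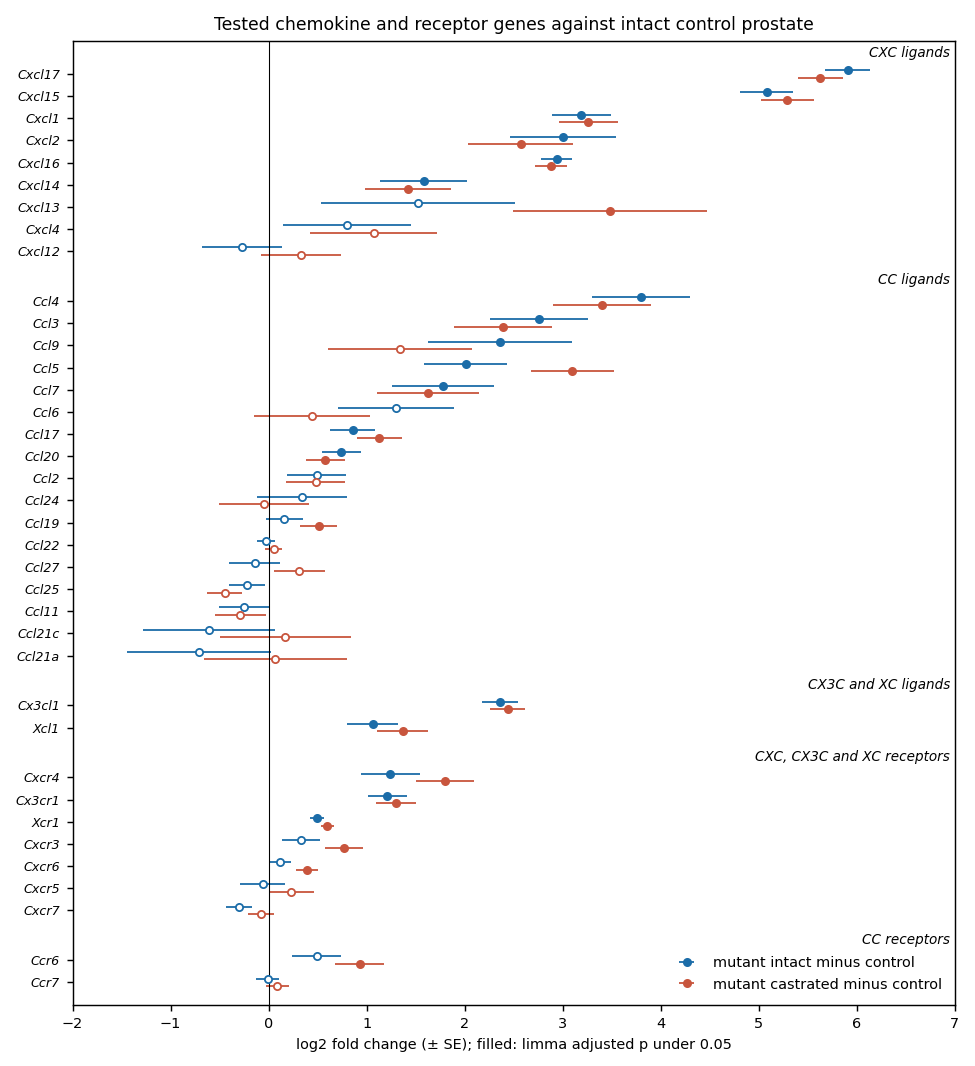
Log2 fold change (horizontal axis, ± SE) of each of the 37 tested genes against the 3 control arrays, for the 6 mutant intact arrays (blue) and the 6 mutant castrated arrays (red). Filled points passed a limma adjusted p under 0.05: Cxcl17 and Cxcl15 lie farthest to the right in both contrasts, which share the control arrays, and no filled point lies left of 0.

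CXC ligands showed the widest changes. Cxcl17, a chemokine of mucosal epithelia, measured 7.32, 7.21 and 7.47 on the 3 control arrays and from 13.04 to 13.55 (median 13.13) on the 6 mutant intact arrays. Control was thus at the background limit, with 1 of 3 arrays above it, and the groups were far apart. The means differed 60.3-fold (log2 fold change 5.91, SE 0.23, limma adjusted p = 7.71e-11). Cxcl15, a mouse chemokine for neutrophils that is known from lung epithelium, measured 7.03, 7.37 and 7.66 in control and from 11.66 to 12.88 (median 12.54) in mutant intact. Again 1 of 3 control arrays was above background. The means lay far apart, by 33.8-fold (log2 fold change 5.08, SE 0.27, limma adjusted p = 2.02e-09).

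Cxcl1 and Cxcl2 are the main mouse ligands of the neutrophil receptor Cxcr2. Cxcl1 measured 7.03, 7.11 and 7.37 in control and from 9.60 to 11.15 (median 10.31) in mutant intact, at least 7.91-fold higher (limma adjusted p = 7.36e-07). Cxcl2 measured 6.84, 6.9 and 6.89 in control and from 8.93 to 10.62 (median 9.84) in mutant intact, at least 5.64-fold higher (limma adjusted p = 0.000361). Neither ligand was above background on any control array, and both were above it on all 6 mutant intact arrays. Folds written as "at least" set the mutant mean against the background limit, because control values below that limit are only bounds. They are used where no control array passed the limit, and where 1 passed, as for Cxcl17 and Cxcl15, the fold of the means rests on control values that are partly bounds. The second probe of Cxcl2 was also called, with a log2 fold change of 0.74 in place of 3.00, so the size depends on the probe.

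In the mouse genome Ppbp, Pf4 (the Cxcl4 of the array), Cxcl3, Cxcl15, Cxcl1 and Cxcl2 follow one another on chromosome 5. Of these neighbours Cxcl15, Cxcl1 and Cxcl2 rose, and Cxcl4 did not pass the test. Cxcl3, whose 1 probe was below background on all 15 arrays, cannot be read. The platelet chemokine Ppbp, which is not counted as a member, was below background in control at a mean of 6.97 and ranged from 6.94 to 10.99 in mutant intact, and did not pass the test. The 150 bases before the start of the 4 genes from Cxcl3 to Cxcl2 are shown because they make up the cluster in which the called and the dim gene sit side by side. They are RefSeq sequences of build GRCm38.p6 on the plus strand, at chr5:90785951-90786100 for Cxcl3, chr5:90794384-90794533 for Cxcl15, chr5:90891095-90891244 for Cxcl1 and chr5:90903749-90903898 for Cxcl2. Capitals mark the longest run of letters shared by the windows of Cxcl1, Cxcl2 and Cxcl3, GGGAATTTCCC, which has the form of a binding motif of NF-kB, and TATAAA, a form of the TATA box.
Cxcl3: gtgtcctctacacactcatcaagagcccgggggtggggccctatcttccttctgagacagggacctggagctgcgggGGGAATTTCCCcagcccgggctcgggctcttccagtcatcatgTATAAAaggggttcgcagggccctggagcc
Cxcl15: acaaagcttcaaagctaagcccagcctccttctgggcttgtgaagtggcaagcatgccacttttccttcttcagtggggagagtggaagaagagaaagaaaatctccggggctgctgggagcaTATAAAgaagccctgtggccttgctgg
Cxcl1: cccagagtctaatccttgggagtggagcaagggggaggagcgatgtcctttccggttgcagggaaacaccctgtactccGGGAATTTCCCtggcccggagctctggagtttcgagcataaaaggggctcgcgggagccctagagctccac
Cxcl2: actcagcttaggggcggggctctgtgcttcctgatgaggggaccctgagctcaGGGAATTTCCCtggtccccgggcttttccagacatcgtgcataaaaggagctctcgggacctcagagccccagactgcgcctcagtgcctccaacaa

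The 11 letters GGGAATTTCCC, searched on both strands of the 250 bases before each start, began 71 bases before the start of Cxcl1, 97 before that of Cxcl2 and 73 before that of Cxcl3, and were not in the window of Cxcl15. They were in 14 of 32851 promoter windows of the table (0.0426%). Of the 36 members found in that table these 3, from which the run was read, were the ones that held it. The letters TATAAA, which do not overlap the first motif, began 27 bases before the start of Cxcl15 and 30 before that of Cxcl3, and were in 4063 of the windows (12.4%). These matches describe letters only, and the gene with both, Cxcl3, was not detected.

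Cxcl16 is a chemokine anchored in the membrane and the ligand of Cxcr6. It measured 8.75, 9.12 and 9.14 in control and from 11.65 to 12.13 (median 11.96) in mutant intact, and the groups did not overlap. The change was 7.66-fold (log2 fold change 2.94, SE 0.16, limma adjusted p = 1.99e-09), and its second probe gave a log2 fold change of 1.53. Cxcl14, an epithelial chemokine for monocytes and dendritic cells, was 9.90 ± 0.18 in control (n = 3) and 11.47 ± 0.91 in mutant intact (n = 6), 2.99-fold higher. Both of its probes were called. Of the 3 tested CXC ligands that did not pass, Cxcl13 had a log2 fold change of 1.52, Cxcl4 of 0.80 and Cxcl12 of -0.27. Cxcl12, the stromal ligand of Cxcr4 and Cxcr7, had 5 probes, of which 2 were below background on all arrays and the other 3 had log2 fold changes of -0.27, -0.62 and -0.59, none called.

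**Figure D2:**
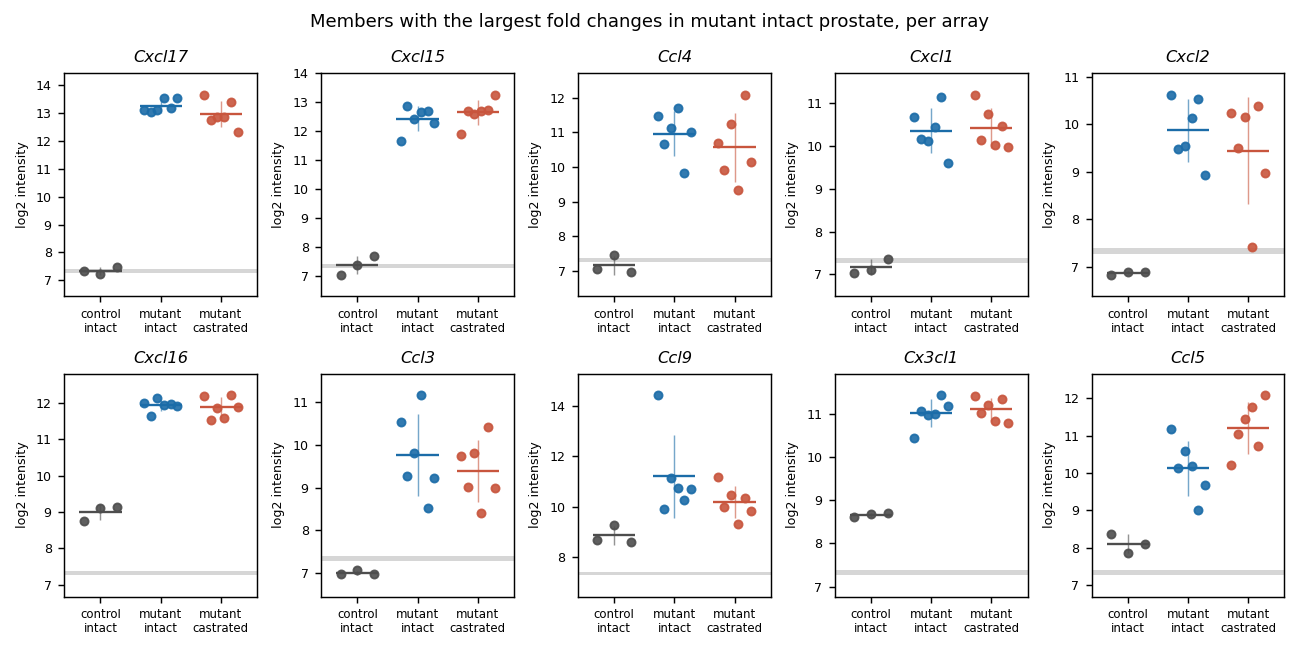
Log2 intensity (vertical axis) on each array for the 10 members with the largest fold change between mutant intact and control, with the group mean and SD as lines and the range of the background limit (7.27 to 7.39) in grey. Every mutant intact array lies above every control array in each panel, and for Cxcl17, Cxcl15, Ccl4, Cxcl1, Cxcl2 and Ccl3 the control arrays lie at or near the grey band or under it.

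Among CC ligands, Ccl3, Ccl4 and Ccl5, which attract monocytes and T cells, changed most together with Ccl9. Ccl4 measured 7.06, 7.47 and 6.97 in control and from 9.84 to 11.70 (median 11.07) in mutant intact. All mutant arrays lay above control, of which 1 of 3 arrays was above background, and the means differed 13.9-fold (log2 fold change 3.80, SE 0.50, limma adjusted p = 2e-05), and the second probe gave 2.14. Ccl3 measured 6.97, 7.06 and 6.97 in control, below background each time, and from 8.53 to 11.17 (median 9.54) in mutant intact. It was at least 5.21-fold higher (limma adjusted p = 0.000376). Ccl5 measured 8.36, 7.86 and 8.11 in control and from 9.02 to 11.17 (median 10.16) in mutant intact, without overlap, and its adjusted p was 0.00127 in limma.

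Ccl9, a mouse CC chemokine for macrophages and their relatives, measured 8.68, 9.27 and 8.59 in control and from 9.91 to 14.45 (median 10.73) in mutant intact. The groups did not overlap, and the change was 5.12-fold (log2 fold change 2.36, SE 0.73, limma adjusted p = 0.0172). That call was lost without control 1 and without control 3. The highest value was that of mutant intact 1, and without this array the log2 fold change was 1.71 (limma adjusted p = 0.00123). Ccl7, an attractant of monocytes, was 7.27 ± 0.16 in control, with 1 of 3 arrays above background, and 9.05 ± 1.15 in mutant intact (3.44-fold by the means, limma adjusted p = 0.0116), with a log2 fold change of 1.78 in all and 1.34 without mutant intact 1. Ccl6 was 7.48 ± 0.03 in control and 8.78 ± 1.39 in mutant intact and did not pass the test (limma adjusted p = 0.0858), although all mutant arrays lay above all control arrays. It passed without mutant intact 1. Ccl5, Ccl9, Ccl6, Ccl3 and Ccl4 are consecutive genes on chromosome 11. In that cluster 4 genes were called and Ccl6 was not.

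Dim CC ligands with called changes were Ccl17, a ligand of Ccr4, which was at least 1.46-fold higher at 7.93 ± 0.30, and Ccl20, the ligand of Ccr6, which was at least 1.39-fold higher at 7.85 ± 0.43. Neither was above background in control. The second probe of Ccl20 was above background on no array. The other 10 tested CC ligands were not called. The homing ligands Ccl21a (10.67 ± 0.11 in control and 9.96 ± 1.2 in mutant intact) and Ccl21c (10.29 ± 0.10 and 9.69 ± 1.11) had overlapping groups with a wide spread among mutant mice. Ccl27, a ligand of Ccr10, stood at 9.85 ± 0.52 and 9.72 ± 0.45, Ccl25, the ligand of Ccr9, at 8.36 ± 0.24 and 8.15 ± 0.25, and the eotaxin Ccl11 at 8.27 ± 0.43 and 8.02 ± 0.44. For Ccl2, Ccl19, Ccl22 and Ccl24, the rest of the uncalled ligands beside Ccl6, control means lay between 7.07 and 7.38, at the background limit.

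Cx3cl1 (fractalkine), which is anchored in the membrane and binds Cx3cr1, measured 8.61, 8.68 and 8.70 in control and from 10.44 to 11.44 (median 11.04) in mutant intact. The groups were well apart, by 5.12-fold (log2 fold change 2.36, SE 0.18, limma adjusted p = 8.92e-08). A further Cx3cl1 probe, listed under another name and not counted here, was above background on no array. The Cx3cl1 receptor Cx3cr1, carried by monocytes and macrophages, was 7.60 ± 0.05 in control and 8.81 ± 0.16 in mutant intact, 2.31-fold higher (limma adjusted p = 0.000155). Xcl1, made by T and NK cells, was at least 1.70-fold higher at 8.15 ± 0.16, and its receptor Xcr1, found on a class of dendritic cells, was at least 1.05-fold higher at 7.45 ± 0.09. Both were below background on all control arrays, and the log2 fold change of Xcr1 was 0.49 (SE 0.07), close to the background limit.

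Read by pairs, ligand and receptor were called together for Cx3cl1 with Cx3cr1 and for Xcl1 with Xcr1. For Cxcl16 the ligand was called while Cxcr6 (7.13 ± 0.12 in control, 7.25 ± 0.09 in mutant intact) was not. For Ccl20 the ligand was called while Ccr6 was not (log2 fold change 0.49, limma adjusted p = 0.127), although its groups did not overlap. Ccr6 was called higher when only the arrays compared were fitted (limma adjusted p = 0.00309). In the opposite case Cxcr4, the receptor of Cxcl12 on many leukocytes, rose from 7.68 ± 0.07 to 8.92 ± 0.56 (2.36-fold, limma adjusted p = 0.00385) while Cxcl12 did not pass the test. The scavenger Cxcr7 was 7.47 ± 0.23 in control and 7.17 ± 0.12 in mutant intact (limma adjusted p = 0.0771). Ccr7, the receptor of Ccl19 and Ccl21, had a log2 fold change of -0.01 (SE 0.12), and Cxcr5 and Cxcr3 had -0.06 and 0.33, none called.

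**Figure D3:**
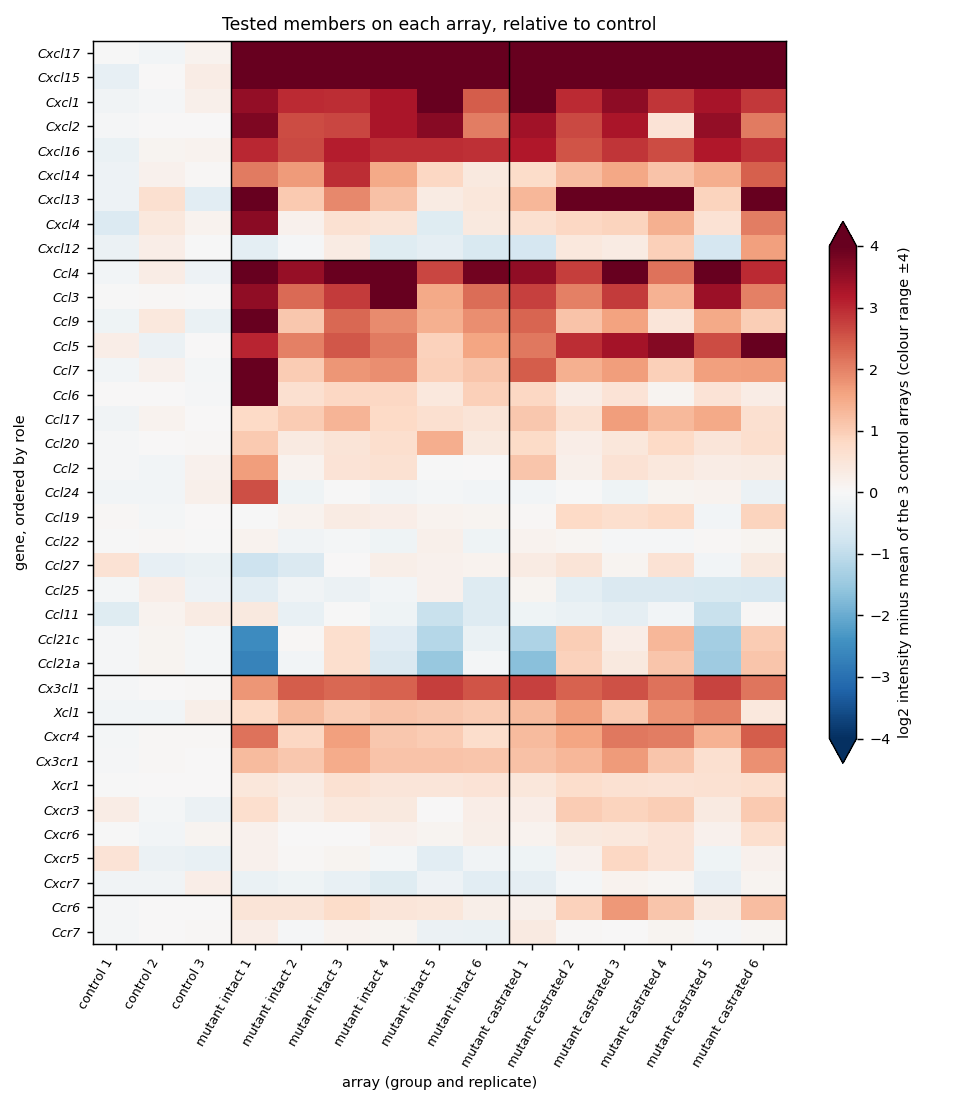
Log2 intensity of the 37 tested genes (rows, ordered by role) on each of the 15 arrays (columns) minus the mean of the 3 control arrays, with the colour range ending at ±4. Cxcl17 and Cxcl15 exceed the range on all 12 mutant arrays, mutant intact 1 stands out in Ccl6, Ccl24 and Cxcl4, and Ccl21a and Ccl21c are lowest on mutant intact 1 and 5 and castrated 1 and 5.

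Genes around the family moved as follows in intact mutant prostate. Of 29 tested genes of chemokine signalling inside the cell, 14 rose and 0 fell (median log2 fold change 0.56), with the leukocyte exchange factor Vav1 4.34-fold, the GTPase Rac2 2.51-fold, the actin regulator Was 2.27-fold and the kinase Jak3 2.09-fold higher. Of 23 tested genes listed for chemokine induction, 16 rose and 0 fell (median 0.87). Il1a, Ifng, Lta, Csf3, Il1r1, Tnfrsf1a and Ltbr were not called. Il6, Il17a, Il17f, Il22, Csf2 and Il17ra were too dim to be tested. The list mixes inducers with regulators, and the NF-kB inhibitor Nfkbia is among the 16. Those with the largest log2 fold change were Tlr2 (15.2-fold), Il1b (6.07-fold), Tnf (at least 3.80-fold) and the NF-kB subunit Relb (4.05-fold). In control, Il1b, Rac2 and Jak3 were above background on 1 of 3 arrays and Vav1 on 2 of 3, so their folds rest partly on bounds. Of 15 leukocyte adhesion genes 5 rose and 0 fell (median 0.55), with Icam1 5.72-fold, Selplg 3.52-fold, Itgae 2.09-fold (above background on 2 of 3 control arrays) and the epithelial cadherin Cdh1 2.03-fold higher. Of 12 genes that anchor or cleave chemokines 6 rose and 1 fell (median 0.56): the protease Mmp14 rose 6.77-fold, the proteoglycan Sdc1 3.88-fold and Mmp2 3.25-fold, while Dpp4, a peptidase that trims chemokines, was 3.12-fold lower. Of 9 atypical receptors, platelet chemokines and chemokine-like genes 2 rose (Cmtm7 and Ccrl2) and 1 fell (the scavenger receptor Ackr4, log2 fold change -0.85), with a median of 0.03. These counts stand against 18.2% of all genes higher and 25.4% lower.

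Many leukocyte markers moved with the members, and others did not. The counts of intact mutant against control that follow stand against 18.2% of all genes higher and 25.4% lower. Of 11 tested macrophage and monocyte markers 10 rose and 0 fell, and the intensity summed over the 12 on the array was 4976 to 6238 in control, 19925 to 145056 in mutant intact and 26323 to 37427 in mutant castrated. Of 7 tested neutrophil markers 4 rose and 1 fell, the sum over 11 was 2565 to 3963, 22390 to 60454 and 29527 to 56210 in the same order, and Mmp8, Ngp and Mpo were below background on all arrays. Most of that sum on the mutant arrays was Lcn2, with means of 10.05, 14.73 and 14.91 in the 3 groups. The marker that fell was Il1r2, and Camp and Retnlg were not called. Of the 4 that rose, S100a8, S100a9 and Csf3r were above background on no control array. They entered the test only through the mutant arrays. The same held for Fcgr1 among the macrophage markers that rose and for Cd22 among the B cell markers that rose. Of 9 tested T and NK cell markers 6 rose and 0 fell (sums of 2593 to 2767, 3537 to 5892 and 3964 to 6158), with Cd8a and Gzmb below background throughout. Of 6 tested B and plasma cell markers 2 rose (1115 to 1177, 1293 to 1854 and 1413 to 2457), with Pax5 below background. Among 6 markers of all leukocytes 3 rose, and Ptprc was not called at means of 7.14, 7.42 and 7.56. Lcp1 (log2 fold change 0.19) and Cd52 (-0.68) were not called either. The sums of this list overlapped, at 7134 to 15513 in control, 7622 to 44492 in mutant intact and 11859 to 24410 in mutant castrated. Dendritic cell markers were low (1366 to 1554, 1416 to 2739 and 1554 to 2358), with 1 of 6 higher and 1 lower. Of 5 eosinophil and mast cell markers 1 rose, Kit, with Siglec5, Epx and Ms4a2 below background. The median log2 fold change of this list was -0.64, since Cpa3 (-1.02), Mcpt4 (-1.02) and Tpsb2 (-0.64) were lower, none called. The part of these cells in the chemokine results was not tested.

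Markers of the resident tissue moved as well, again beside 18.2% of all genes higher and 25.4% lower in intact mutant against control. All 5 basal markers rose (summed intensity 4438 to 6742 in control, 34570 to 57047 in mutant intact and 31049 to 55700 in mutant castrated), and all 7 smooth muscle markers fell (57785 to 67609, 4814 to 26531 and 4791 to 16635). Luminal markers split into 2 higher, 2 lower and 4 not called, endothelial markers into 3 higher, 1 lower and 2 not called with Kdr below background, and 1 of 7 fibroblast markers rose. None of the 6 tested seminal vesicle genes was called, and Svs3a was below background. Without control 2 and 3 and mutant intact 2 and 3, the arrays with high seminal vesicle transcripts, 10 members were called higher, all 10 among the 18: Ccl4, Ccl3, Cx3cl1, Cxcl17, Cxcl15, Cxcl1, Cxcl2, Cxcl16, Cx3cr1 and Xcr1. That fit rests on 1 control array, which is assumed to vary like the other groups, and 1412 of all genes were higher in it against 3042 in the full fit.

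Mutant intact 1 stood apart in part of the family. It was the highest mutant intact array in 14 of 37 members (37.8%, against 20% of all genes) and lay over 1 log2 unit above the next array in 7 (18.9%, against 2.3%): Ccl2, Ccl6, Ccl7, Ccl9, Ccl24, Cxcl4 and Cxcl13. Ccl24, an eotaxin, was 9.96 there and 7.19 to 7.36 on the other mutant intact arrays, which is at background. Ccl2 was 8.75 there against 7.07 to 7.69. The ligands Ccl21a and Ccl21c, by contrast, had their lowest values of all arrays there, at 7.99 and 7.77. Macrophage markers were highest on this array, as given above, and endothelial markers summed to 18145 there and to 2241 to 3577 on the other mutant intact arrays. Most of the 18145 was Lyve1, which reached 13.9 in mutant intact (median 8.09). No other endothelial marker exceeded 10.03 on a mutant intact array. The part of macrophages and of endothelium in these values was not tested.

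**Figure D4:**
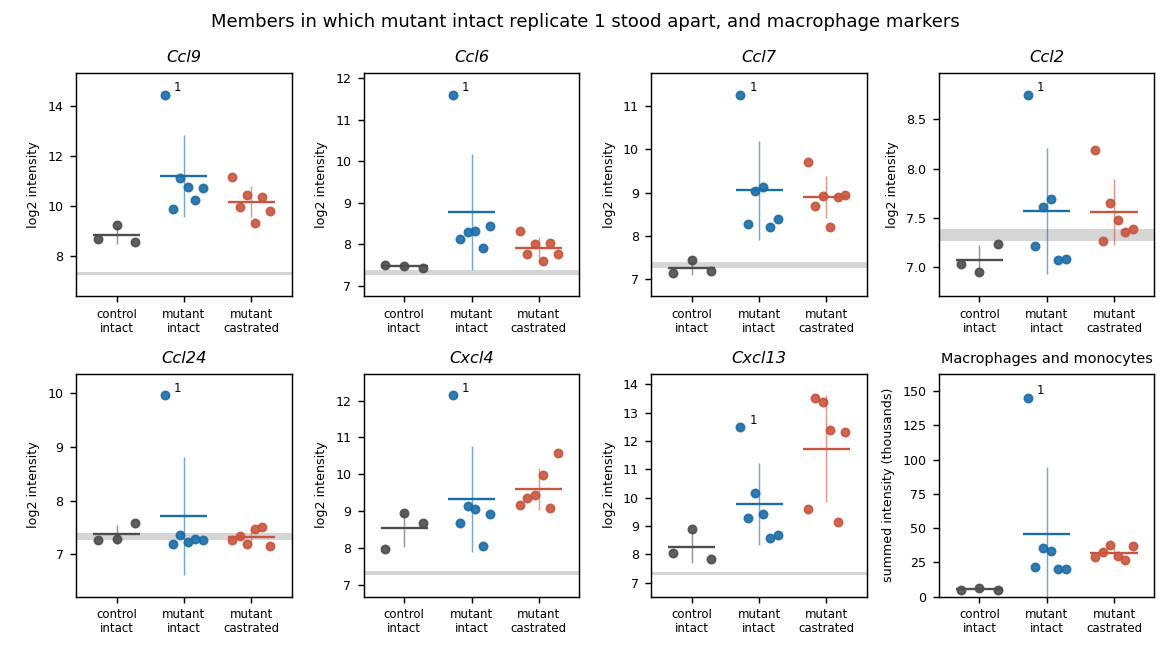
Log2 intensity on each array of the 7 members in which mutant intact 1 (marked 1) lay over 1 log2 unit above the next array of its group, and the intensity summed over 12 macrophage and monocyte markers. Lines give the group mean and SD and the grey band the background limit. The marked array is the highest of its group in every panel, and of all 15 arrays in every panel but that of Cxcl13, at 14.45 in Ccl9 and 145056 in the marker sum.

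The second comparison asked what castration changed in mutant prostate. No member was called, and neither was any of the 16682 genes (0% higher in limma). At an unadjusted p under 0.05, 7 of 37 members were higher and 0 lower (18.9%), against 10.2% of all genes higher and 5.48% lower. These were the ligands Ccl5, Cxcl13 and Ccl19 and the receptors Cxcr6, Cxcr3, Cxcr4 and Ccr6, which are known for T and B cells. No member had groups without overlap, against 0.767% of all genes higher. With limma's array weights 4 members were called higher, Ccl5, Cxcl13, Cxcr3 and Cxcr6, with 398 genes higher and 220 lower in all. Over all genes the count of 0 also depended on single arrays: 192 genes were higher without castrated 1 and 151 without castrated 5, but no member was called in either fit.

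Ccl5 ranged from 9.02 to 11.17 (median 10.16) in mutant intact and from 10.22 to 12.09 (median 11.25) in mutant castrated. The groups overlapped, with a log2 difference of 1.09 (SE 0.35, limma adjusted p = 0.157). Cxcl13, the attractant of B cells into follicles, ranged from 8.57 to 12.48 (median 9.35) in mutant intact and from 9.15 to 13.52 (median 12.36) in mutant castrated. It had the largest difference among members, 1.96 on the log2 scale (SE 0.81, limma adjusted p = 0.261), and the widest spread, since 4 castrated arrays lay between 12.33 and 13.52 and castrated 1 and 5 at 9.59 and 9.15. Only mutant intact 1 reached that range in intact mice, at 12.48.

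The receptors differed by less. Cxcr3, a receptor of activated T cells, ranged from 7.26 to 7.91 (median 7.54) in mutant intact and from 7.49 to 8.27 (median 8.18) in mutant castrated, a log2 difference of 0.43 (SE 0.16, limma adjusted p = 0.209). Cxcr6, a receptor of effector T cells, ranged from 7.14 to 7.36 (median 7.27) and from 7.28 to 7.80 (median 7.53), close to background in both groups. Cxcr4 ranged from 8.37 to 9.84 (median 8.73) and from 8.93 to 10.11 (median 9.48), and Ccr6 from 7.31 to 7.79 (median 7.56) and from 7.26 to 8.80 (median 8.08). In each of these the groups overlapped, and limma adjusted p-values were 0.169 for Cxcr6, 0.291 for Cxcr4 and 0.313 for Ccr6. Ccl19, the ligand of Ccr7, ranged from 7.21 to 7.58 (median 7.38) and from 7.14 to 8.12 (median 7.96), with a difference of 0.35 (SE 0.16, limma adjusted p = 0.301). Ccl27 (0.44), Cxcr7 (0.22) and Xcr1 (0.12) had the next smallest p-values, with adjusted p of 0.322, 0.335 and 0.346 in limma.

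Ligands with the widest genotype differences were also bright in castrated mice. Cxcl17 was 12.97 ± 0.48 (range 12.31 to 13.65), a difference from mutant intact of -0.28 (SE 0.19), and Cxcl15 was 12.65 ± 0.44, a difference of 0.22 (SE 0.22). Cxcl1 differed by 0.07 (SE 0.25), Cxcl16 by -0.05 (SE 0.13) and Cx3cl1 by 0.09 (SE 0.15). Ccl4, Ccl3 and Cxcl2 differed by -0.40, -0.36 and -0.43, with SE of 0.41, 0.41 and 0.44, so that changes of that size or larger in either direction lie within the error. Cxcl2 was 7.42 on castrated 4, at background, and 8.97 to 10.38 on the other castrated arrays.

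Castrated 1 and 5 were the lowest pair of the castrated group in 13 of 37 members (35.1%, against 17.7% of all genes). These were Ccl5, Ccl19, Ccl21a, Ccl21c, Ccr6, Cxcl4, Cxcl12, Cxcl13, Cxcr3, Cxcr4, Cxcr5, Cxcr6 and Cxcr7. Ccl21a was 8.98 and 9.23 on these arrays and 11.05 to 11.79 on the other castrated arrays, Cxcl12 was 8.95 and 8.94 against 9.93 to 11.26, and Ccl19 was 7.28 and 7.14, below background, against 7.90 to 8.12. The same arrays were the highest pair in 5 members (13.5%, against 14.8%): Cxcl17, Cxcl16, Cxcl2, Cx3cl1 and Ccl6. Their T and NK cell marker sums were 3964 and 4397 against 5564 to 6158 on the other castrated arrays, and their B and plasma cell sums 1413 and 1589 against 2233 to 2457. Fibroblast sums were lower there too, as given above. At an unadjusted p under 0.05, 5 of 9 T and NK cell markers and 4 of 6 B and plasma cell markers were higher in castrated than in intact mutants, none after adjustment. At the same limit 10.2% of all tested genes were higher and 5.48% lower. The part of these cells was not tested.

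**Figure D5:**
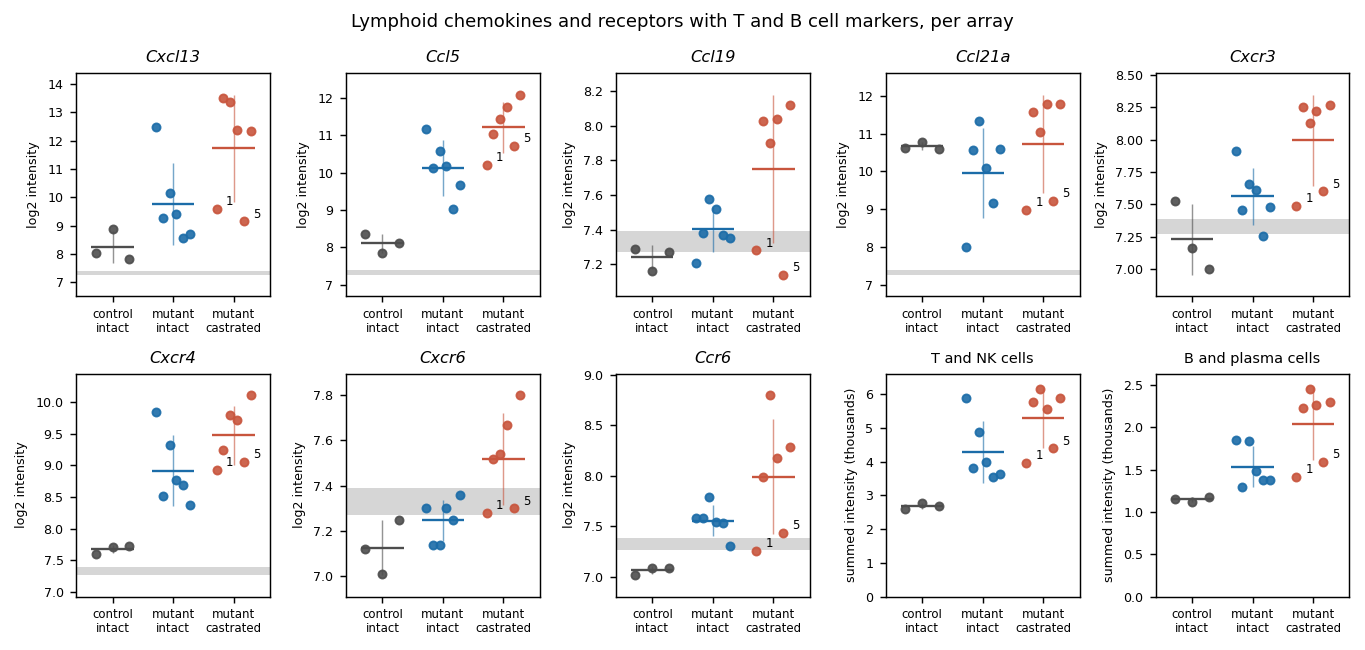
Log2 intensity on each array for 8 ligands and receptors of T and B cells, and the summed intensity of T and NK cell and of B and plasma cell markers. Lines give the group mean and SD, the grey band the background limit, and the numbers 1 and 5 mark castrated 1 and 5, which are the lowest of their group in every panel, at 9.59 and 9.15 in Cxcl13.

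Castrated mutant mice were last compared with intact controls, from which they differ in genotype and castration together. It shares its control arrays with the first comparison and its castrated arrays with the second. Of 37 tested members 22 were higher and 0 lower (59.5%), against 20.0% of all genes higher and 24.6% lower, and 10 of the 22 were above background on no control array. No control array was above background for 32.4% of tested members, against 11.8% of all tested genes. The groups lay apart for 24 higher members (64.9%), against 20.2% of all genes, and the median log2 fold change over the members was 0.93. Called in both genotype contrasts were 17 members. Ccl9 was called in mutant intact and not in castrated mice (log2 fold change 1.34, limma adjusted p = 0.156), and Cxcl13, Ccl19, Ccr6, Cxcr3 and Cxcr6 were called in castrated mice and not in mutant intact. None of these 6 differed between the mutant groups after adjustment, so the calls do not separate them. Ccl9 was also called in castrated mice when mutant intact 1, which enters only through the shared spread, was left out (limma adjusted p = 0.00502), and when only the arrays compared were fitted (0.0096). Ccl6 and Cxcl4, not called in the full fit, behaved likewise, with limma adjusted p of 0.0207 and 0.0147 without mutant intact 1. Ccl25, at a log2 fold change of -0.45, was called lower without control 3, without mutant intact 1, 5 or 6 and without castrated 1 (-0.56, limma adjusted p = 0.00618).

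Among these 6, Cxcl13 was 8.24 ± 0.56 in control (n = 3) and 11.73 ± 1.89 in castrated mice (n = 6), 11.2-fold higher (log2 fold change 3.48, SE 0.99, limma adjusted p = 0.0102). Its control values were 8.03, 8.88 and 7.83, all under the lowest castrated array. Ccl5 was 8.6-fold higher in castrated mice than in control, with a log2 fold change of 3.1 beside 2.01 in mutant intact. Cxcr4 was 3.48-fold higher, with 1.80 beside 1.24. Cxcr3 had 0.77 beside 0.33, Ccr6 0.93 beside 0.49 and Cxcr6 0.39 beside 0.12. The second tested probe of Ccr6 gave 0.22 beside 0.01 and was not called in either contrast. The call of Ccl19 (at least 1.29-fold, limma adjusted p = 0.0424) rested on overlapping groups and was lost in 14 of 25 alternative fits, without each control array among them. Ccl20 lost its call in 7, again without each control array among them, and Ccl7 without control 1 or control 3, Cxcl14 without control 1 and Cxcr6 without control 2. Without the 4 intact arrays high in seminal vesicle transcripts, a fit with 1 control array, 12 of the 22 members were called. The calls of Cxcl13, Ccl19, Ccr6, Cxcr3 and Cxcr6 were lost there, with limma adjusted p of 0.137 to 0.358, as were those of Ccl3, Ccl7, Ccl20, Cxcl2 and Cxcl14, all with log2 fold changes above 0.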

How the data were processed

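Each of 15 mice gave 1 single-colour Illumina BeadArray, and separate animal IDs make the arrays of a group biological replicates. The kits named in the labels' protocols are MagMAX-96 for extraction and TotalPrep-96 for biotin labelling. The deposited intensity values, on a linear scale, are the authors' processed values. How the authors corrected background and normalized these intensities is not stated in the files or labels. The lowest intensity was 105.78, so fold changes of dim genes come out too small. Another 15 deposited columns of signals that were not normalized carry chip positions only and were not used, so the chip could not be tested as a batch.

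Members were matched by the deposited gene symbol of each probe. Current names, gene order and promoter sequences came from RefSeq tables of GRCm38.p6, which held promoters for 36 members. Some genes, 1 gene that matches the rule and those altered in the mice among them, are not reported here and not counted among the members or lists.

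From the log2 of these intensities, probes above background on at least 3 arrays were kept (24474 probes), and the brightest stood for each of 16682 genes. Limma 3.58.1 in R 4.3.3 was fitted with 1 mean per group over all 15 arrays (12 residual degrees of freedom), with eBayes, two-sided tests and Benjamini-Hochberg adjustment over all tested genes. Every adjusted p is from limma. The script was tested on simulated data. The number of arrays limits the precision.

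The members, the 5 lists of related genes and the 13 lists of cell markers were chosen with earlier results of these data known. Any member could be named. Values on single arrays are given for the 10 members with the largest fold in mutant intact against control, for the 10 with the smallest p in castrated against intact, and for others chosen after their values were seen. Up to 4 called genes with the largest fold were named per list of related genes. The comparisons were refitted under 25 alternatives, 15 of which left out 1 array each.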

Additional observations from a re-analysis of the deposited data

Results flagged for a closer look

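For each of the 37 tested members, the 6 mutant intact and the 6 mutant castrated arrays were searched for a single array far from the rest, by the gap to its nearest neighbour over the range of the group (74 searches). Chance flags about 1 in 20 groups if groups are independent, and 8 were found here. Flags that fall on the same array are not independent, and no share over all genes is given for this search. The count is therefore not read against chance. Mutant intact 1 was the high array in 6 of the 8 flagged groups. The monocyte ligands Ccl2 and Ccl7 measured 8.75 and 11.26 there, against 7.07 to 7.69 and 8.21 to 9.13 on the other mutant intact arrays. The neighbouring genes Ccl6 and Ccl9 measured 11.60 and 14.45, against 7.91 to 8.44 and 9.91 to 11.14. The eotaxin Ccl24 measured 9.96, against 7.19 to 7.36. Platelet factor 4, listed as Cxcl4, measured 12.15, against 8.05 to 9.15.

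Castrated 1 was the high array in the remaining 2. The ligand Ccl25 measured 8.47 there, against 7.71 to 7.98 on the other castrated arrays, and its receptor Ccr9 was below background on all arrays. The receptor Ccr7 measured 7.77, against 7.38 to 7.51, which is close to the background limit.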

How the results depend on the processing

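In mutant intact against control, 10 of the 18 called members kept their call in all 25 alternatives. Leaving out 1 array gave 17 to 19 members higher, Ccl9 being lost without control 1 or 3 and Ccl6 gained without mutant intact 1. Without the 4 intact arrays high in seminal vesicle transcripts, 10 members were higher, with 1412 genes higher and 2248 lower. With array weights 1 member, Cxcr7, was lower. Ccr6 was gained as higher with only the arrays compared and under normexp with quantile normalization (limma adjusted p = 0.00309 and 0.0258). Ccl6 was gained with array weights and under normexp with quantile normalization (limma adjusted p = 0.0392 and 0.0337).

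In castrated against mutant intact, array weights called 4 members higher, with 398 genes higher and 220 lower, and no filter on dim probes called 1 gene higher. Leaving out 1 array gave 0 to 192 genes higher (192 without castrated 1, 151 without castrated 5, 1 without castrated 3) and 0 to 83 lower (76 and 83 without castrated 1 and 5), with no member called.

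In castrated against control, leaving out 1 array gave 18 to 25 members higher and 0 to 1 lower. Without the 4 arrays, 12 members were higher, with 1611 genes higher and 2357 lower. With no filter on dim probes, 1 member, Ccr1l1, was lower. Under array weights, the 99th percentile limit, normexp with quantile normalization, or probes averaged per gene, 1 member, Ccl25, was lower. No member called against control, and none of the 10 with the smallest p in castrated against intact, changed direction under any alternative, and rescaling moved the median of all genes by less than 0.1. The cause of these changes was not tested. No paired analysis was possible because the labels give no replicate numbers. Raw signals, planned as an alternative, could not be fitted because their columns are not tied to animals. Values near the background limit, such as those of Xcr1, Cxcr6, Cxcr7, Ccl19 and Ccr7, are limited by signal over background.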
